A study of Mus musculus with 6 samples.

Results

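The genes described here are 32 genes of DNA replication, mitosis and the entry into the cell cycle, chosen by name, in the bladder of Get1 -/- and Get1 +/- mouse embryos. A probe set that the platform annotation gives to 1 gene represented 31 of them, out of 18193 genes on the array, and all 31 passed the filter on dim genes that left 12735 genes for testing. Ccnb1 was not analysed here. By role, 10 of the 31 serve DNA replication, 16 serve mitosis and 5 act in G1, the phase before DNA synthesis.

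RNA of bladders at embryonic day 18.5 had been hybridised to 6 arrays, 3 from Get1 -/- embryos (null, arrays 1 to 3) and 3 from Get1 +/- embryos (heterozygous, arrays 4 to 6). The design text asks what goes wrong in the bladder without Get1, also called Grhl3, which belongs to the grainyhead family and acts in epithelia that face the outside. It counts 3 mice of each genotype. The controls carry a mutant allele too, and no wild-type bladder was analysed here. In the sample titles null array 1 bears another first number than the other 5 arrays, with no meaning stated. Strain, sex and the cells in which the allele is altered are not given in the labels.

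Before a cell divides, the Mcm2 to Mcm7 proteins are loaded on DNA as a ring-shaped helicase, and ribonucleotide reductase and thymidylate synthase supply the building blocks for copying. Cyclins and their kinases, above all Cdk1, then drive the cell into mitosis, where the Aurora and polo-like kinases, the Bub checkpoint proteins and kinesin motors arrange and part the chromosomes. Transcripts of these genes are made in dividing cells and are low in resting ones, so in a tissue sample they are widely used as a readout of proliferation. In the fetal bladder, dividing cells are found in the urothelium as well as in the stroma and muscle layer.

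Levels are given as log2(signal + 16), where signal is the deposited linear intensity of the gene's brightest probe set, so that the lowest possible level is 4. Differences are null minus heterozygous on this scale, SD is over the 3 arrays of a group, and SE and 95% intervals are those of the moderated fit. A gene was called at an adjusted p under 0.05 (limma, Benjamini-Hochberg over 12735 genes). The upper quartile of signal lay between 334 and 370 on the 6 arrays, and the Pearson correlation of log2 levels between arrays ranged from 0.936 to 0.958. Grhl3 itself had signals of 76.6, 21.5 and 119.7 in null (arrays 1 to 3) against 143, 133 and 126 in heterozygous bladders (arrays 4 to 6). Its groups did not overlap, its difference of -0.95 was not called (adjusted p = 0.655, limma), and since the altered part of the gene is not stated, its probe set may check nothing.

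Of the 31 genes 0 were called, against 0.510% of all genes tested (0.448% higher and 0.0628% lower in null). In a bulk sample fewer cells of a type and less RNA per cell cannot be told apart. Of the 31 genes 28 had a difference smaller than 0.5 in either direction, against 81.3% of all genes. Without adjustment 2 of the 31 had p under 0.05, against 7.93% of all genes: Ccne2, higher in null (3.63% of all genes), and Tyms, lower (4.30%). Groups did not overlap for 3 of the 31, against 13.4% of all genes: Ccne2, higher in null (6.07%), and Tyms and Ccnd2, lower (7.36%). The median difference was -0.10 for replication genes, 0.10 for mitosis genes and -0.28 for G1 genes, beside -0.03 for all genes tested. The 95% interval of the difference lay wholly within 2-fold in either direction for 23 of the 31 genes, against 60.0% of all genes. The interval bound farthest from 0 was that of Cdkn1a, at -1.90, and the widest interval was that of Mcm5, from -1.68 to 0.71.

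**Figure D1:**
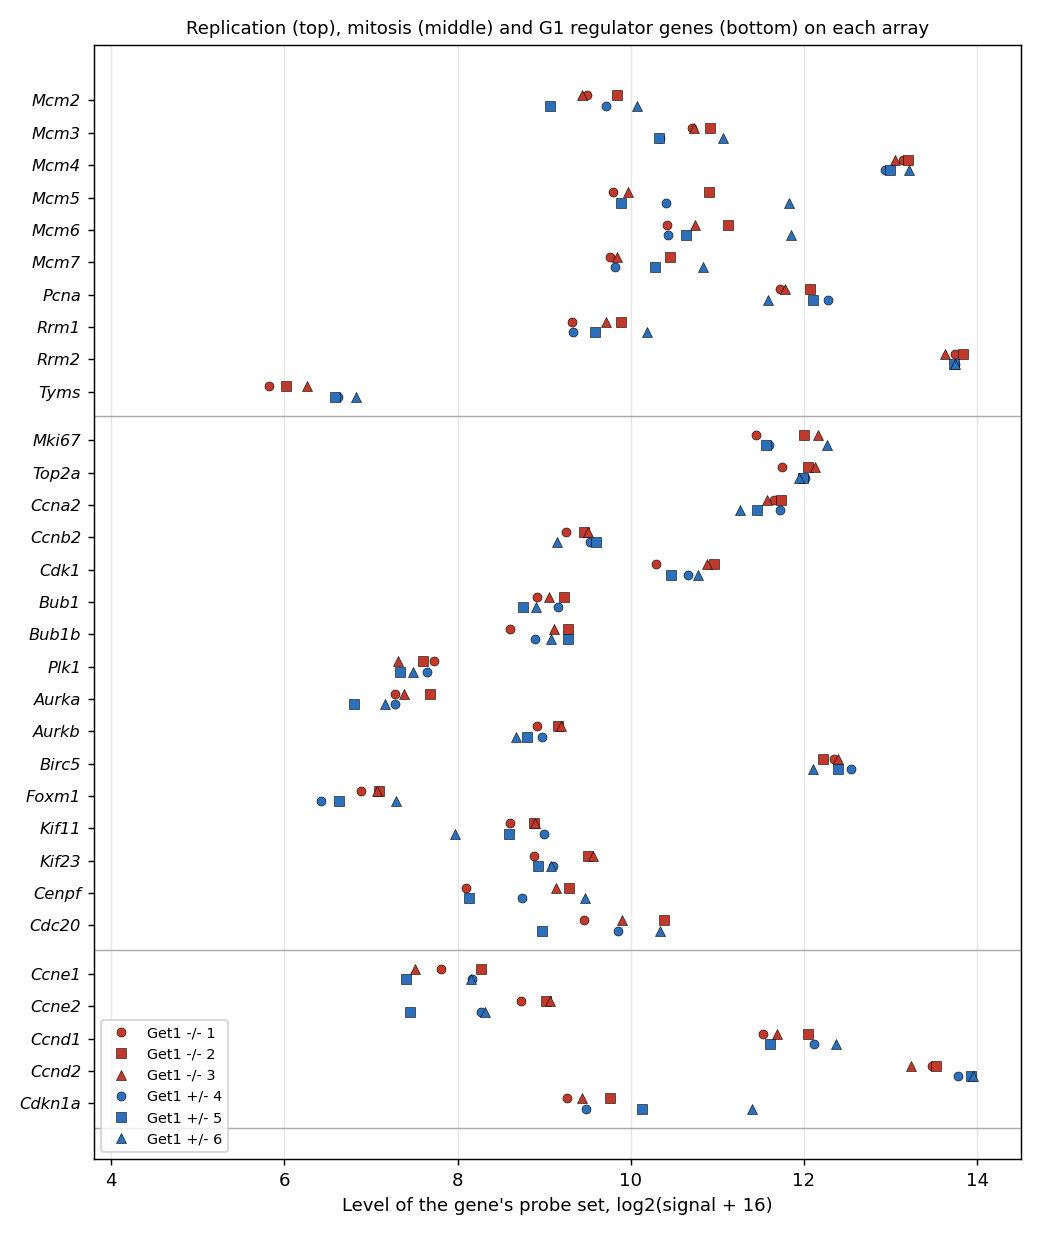
Level of each of the 31 genes on each array, as log2(signal + 16), with null arrays in red and heterozygous arrays in blue and 1 marker shape per array. Red and blue points overlap for 28 of the 31 genes. They are separate for Tyms, Ccne2 and Ccnd2.

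Promoter sequences of these genes were searched for the letters of known motifs, none of which all of the genes held. Replication genes are known for sites of E2F factors, which switch on genes for DNA synthesis at the end of G1. Mitosis genes are known for the CHR element, through which the MuvB complex represses them in resting cells and activates them later, beside CCAAT boxes bound by NF-Y. Windows of 300 bases, 250 before and 50 after the start of the gene, were taken from RefSeq (GRCm38.p6) and matched 25 of the 32 genes by symbol, Ccnb1 included. The letters searched on both strands were TTTCCCGC, TTTCGCGC, TTTGCCGC or TTTGGCGC for E2F, TTTGAA or TTTAAA for CHR, CCAAT for the CCAAT box, and AACCGGTT for grainyhead factors, the family of Get1. The 5 windows printed run 5′ to 3′ on the strand of the gene, with all matches in capitals. They are those of Mcm6 and Mcm3 as replication genes with E2F letters, Rrm2 as the 1 gene with grainyhead letters, and Cdk1 and Cdc20 as mitosis genes with CHR letters. Where capitals run on from 1 match into another, as at the first E2F letters of Mcm6, the matches overlap.
Mcm6: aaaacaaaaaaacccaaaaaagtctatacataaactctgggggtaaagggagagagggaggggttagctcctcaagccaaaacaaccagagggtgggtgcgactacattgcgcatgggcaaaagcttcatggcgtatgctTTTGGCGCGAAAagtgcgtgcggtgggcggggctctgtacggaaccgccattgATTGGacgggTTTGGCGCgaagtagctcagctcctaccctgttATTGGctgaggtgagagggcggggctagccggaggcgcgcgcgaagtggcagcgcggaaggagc
Mcm3: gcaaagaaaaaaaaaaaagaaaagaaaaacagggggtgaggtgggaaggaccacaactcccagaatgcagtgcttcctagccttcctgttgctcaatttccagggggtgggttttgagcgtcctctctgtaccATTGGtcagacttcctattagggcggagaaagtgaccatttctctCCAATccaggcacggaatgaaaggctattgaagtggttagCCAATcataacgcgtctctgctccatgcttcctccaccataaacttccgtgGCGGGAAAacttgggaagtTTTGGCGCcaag
Rrm2: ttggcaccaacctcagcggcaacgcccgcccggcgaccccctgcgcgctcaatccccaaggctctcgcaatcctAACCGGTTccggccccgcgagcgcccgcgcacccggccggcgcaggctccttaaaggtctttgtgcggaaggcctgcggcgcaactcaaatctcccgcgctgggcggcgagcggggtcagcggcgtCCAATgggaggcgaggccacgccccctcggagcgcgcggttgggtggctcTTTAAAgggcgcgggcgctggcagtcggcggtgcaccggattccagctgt
Cdk1: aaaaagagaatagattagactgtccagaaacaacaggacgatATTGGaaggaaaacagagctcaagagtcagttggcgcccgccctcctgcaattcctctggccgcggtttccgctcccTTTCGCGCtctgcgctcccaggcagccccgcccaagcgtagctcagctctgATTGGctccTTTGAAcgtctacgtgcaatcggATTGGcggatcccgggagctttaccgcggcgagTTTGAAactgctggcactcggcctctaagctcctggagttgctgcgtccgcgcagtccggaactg
Cdc20: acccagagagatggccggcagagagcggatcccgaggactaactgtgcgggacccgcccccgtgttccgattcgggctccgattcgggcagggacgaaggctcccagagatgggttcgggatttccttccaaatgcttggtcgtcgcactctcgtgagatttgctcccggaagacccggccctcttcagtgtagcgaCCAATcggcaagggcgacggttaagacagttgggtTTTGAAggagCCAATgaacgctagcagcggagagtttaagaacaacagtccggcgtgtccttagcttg
These windows lie at chr1:128359656-128359955, minus strand (Mcm6), chr1:20820263-20820562, minus strand (Mcm3), chr12:24708004-24708303, plus strand (Rrm2), chr10:69352863-69353162, minus strand (Cdk1) and chr4:118437294-118437593, minus strand (Cdc20).

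E2F letters were found in 4 of 9 replication genes with a window, Mcm3, Mcm5, Mcm6 and Mcm7, in 1 of 14 mitosis genes, Cdk1, and in 2.61% of the 27025 genes in the table (2.26% of its 32851 windows). CHR letters were found in 13 of 14 mitosis genes, the exception being Bub1, in 3 of 9 replication genes, Mcm2, Mcm5 and Rrm2, and in 30.6% of all genes (27.6% of windows). CCAAT letters were found in 8 of 9 replication genes, 13 of 14 mitosis genes and 41.1% of all genes (37.4% of windows), and 12 of the 14 mitosis genes held CHR and CCAAT letters in 1 window against 12.2% of all genes. In Cdc20 the CHR letters began 18 bases before the start site, with CCAAT letters beginning 53 and 8 bases before it. Mcm7 and Cdkn1a had 2 windows each, which gives a match more chances, and 1 pair of matches to different motifs, CCAAT and E2F, overlapped in the windows of the 25 genes.

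The grainyhead letters AACCGGTT were found in the window of 1 of the 25 genes, Rrm2, beginning at position -176 from its start site, and in 47 of 27025 genes (0.174%; 0.146% of windows). Rrm2 encodes the small subunit of ribonucleotide reductase. Its signals were 13720, 14569 and 12638 in null against 13677, 13566.5 and 13731 in heterozygous bladders. All 3 heterozygous values lay within the range of the null arrays. Mean levels were 13.74 ± 0.10 (null) against 13.74 ± 0.0089 (heterozygous; SD, n = 3 each), a difference of -0.0041 with a 95% interval from -0.45 to 0.45 (adjusted p = 0.998, limma). These values come from a probe set with a name ending in _x_at, which marks probes that can match other transcripts. The 2 plain Rrm2 probe sets were far dimmer, with mean null levels of 7.59 and 6.44, and had differences of 0.17 and -0.17 (adjusted p = 0.973 and 0.955, limma over probe sets). On the first of them heterozygous array 6 was the lowest. A match is a description of letters, not a site.

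**Figure D2:**
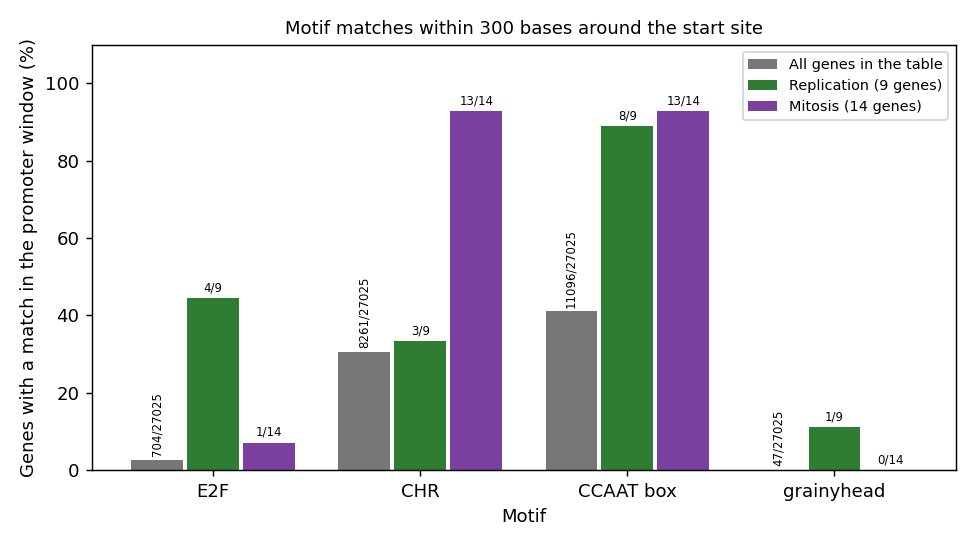
Percent of genes whose promoter window held each motif, for all genes in the table (grey), replication genes (green) and mitosis genes (purple), with counts above the bars. E2F letters were found in 4 of 9 replication genes, and CHR letters in 13 of 14 mitosis genes.

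The 10 replication genes comprise the 6 subunits of the Mcm helicase, the sliding clamp Pcna, both subunits of ribonucleotide reductase and thymidylate synthase. Of these 10, 0 were called, 2 had a difference above 0, and the differences ran from -0.64 (Tyms) to 0.20 (Mcm3). Mcm5, the helicase subunit with the widest interval, had signals of 869, 1903 and 989 in null against 1337, 932 and 3616 in heterozygous bladders. Heterozygous array 6 stood above all others, and the remaining 5 arrays overlapped between the genotypes. The Mcm5 difference was -0.48 (SE 0.52, 95% interval -1.68 to 0.71, adjusted p = 0.888, limma). Leaving out 1 array in turn moved it between -0.89 (without heterozygous array 5) and 0.08 (without heterozygous array 6), and it was -0.82 without null array 2.

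Mcm6, another subunit of the ring, had signals of 1357, 2221 and 1690 in null against 1359, 1575 and 3689 in heterozygous bladders, again with array 6 on top. Its difference was -0.21 (SE 0.40, adjusted p = 0.951, limma), and from -0.48 (without heterozygous array 4) to 0.23 (without heterozygous array 6) with 1 array left out. For Mcm7 the signals were 850, 1384 and 898 in null against 884, 1231 and 1806 in heterozygous bladders. The Mcm7 difference was -0.29 (adjusted p = 0.890, limma), and from -0.54 (without array 4) to -0.03 (without array 6) with 1 array left out. For all 3 subunits the heterozygous arrays lay further apart than the means of the genotypes.

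Mcm4, the subunit with the smallest spread, had signals of 9051, 9405 and 8450 in null and 7840, 8140 and 9478 in heterozygous bladders, and a difference of 0.08 (95% interval -0.38 to 0.55). Mcm3 and Mcm2 had differences of 0.20 and -0.03 (adjusted p = 0.914 and 0.995, limma). Rrm1, the large subunit of ribonucleotide reductase, had a difference of -0.06 (adjusted p = 0.985, limma). Other Rrm1 probe sets above the filter had differences of 0.50 and -0.49 (adjusted p = 0.815 and 0.770, limma over probe sets). Their groups did not overlap, as for 13.4% of all genes by their brightest probe set. Pcna, the clamp that holds DNA polymerase on its template, had signals of 3364, 4278 and 3509 in null and 4945, 4375 and 3067 in heterozygous bladders. Array 6, the highest for 8 of the 10 replication genes, was the lowest for Pcna, whose difference was -0.13 (95% interval -0.71 to 0.45).

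Tyms, thymidylate synthase, was the 1 replication gene whose groups did not overlap. It had signals of 40.5, 48.7 and 60.9 in null against 82.1, 79.8 and 98.0 in heterozygous bladders, all of them dim. Mean levels were 6.03 ± 0.22 (null) against 6.68 ± 0.14 (heterozygous; SD, n = 3 each). The difference of -0.64 (SE 0.22, 95% interval -1.15 to -0.14) was not called (adjusted p = 0.501, limma; exact two-sided permutation p = 0.1, which no split of 3 and 3 arrays can undercut). A second Tyms probe set above the filter had a difference of 0.01 (adjusted p = 0.997, limma over probe sets). Of 2 others below the filter, which were not tested, one had a difference of -0.99 with separate groups and the other 0.12. With an offset of 64 in place of 16 the Tyms difference was -0.40.

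**Figure D3:**
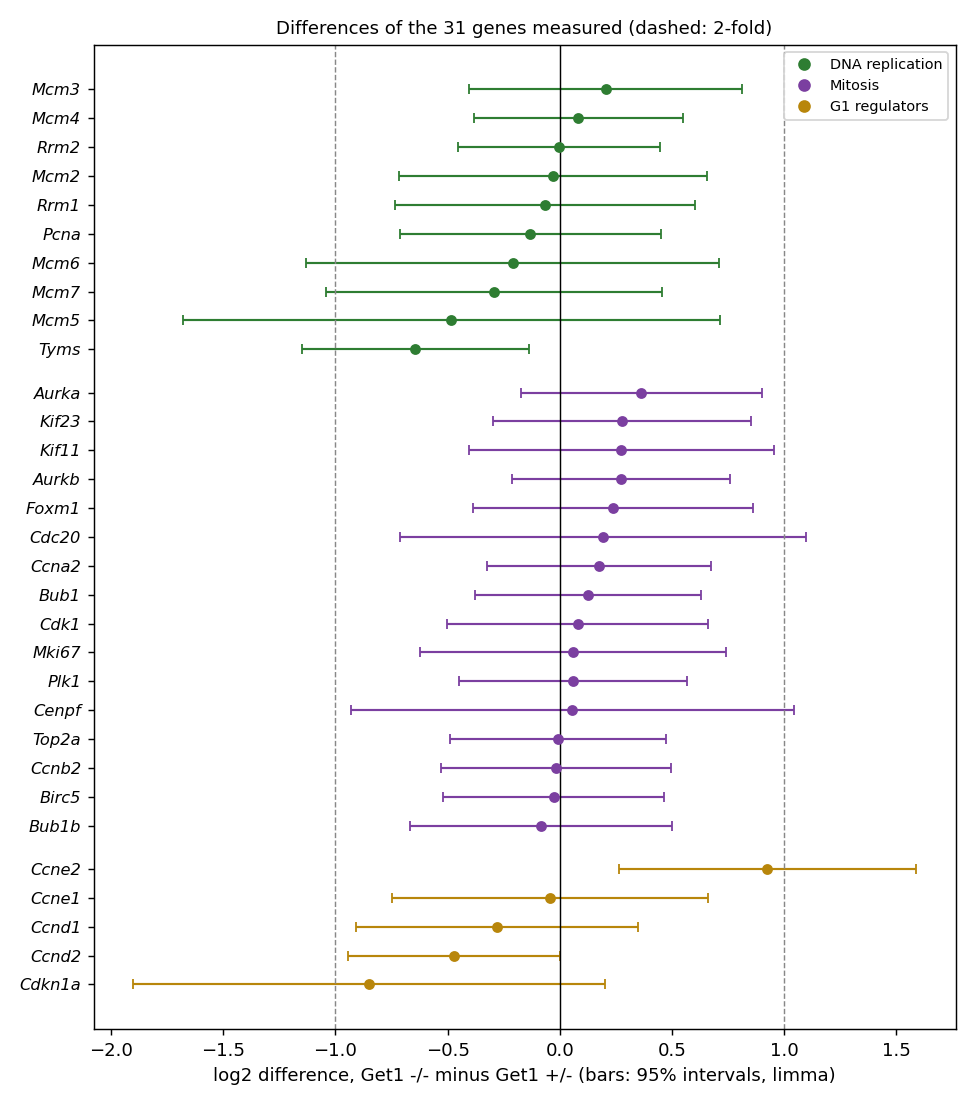
Difference of each of the 31 genes, null minus heterozygous, with 95% intervals of the limma fit, in the colours of the 3 roles. Dashed lines mark a 2-fold difference in either direction. The interval leaves out 0 for Tyms and Ccne2, neither of which passed after adjustment.

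The 16 mitosis genes lay closest together, with differences from -0.08 (Bub1b) to 0.36 (Aurka), 0 calls, and groups that overlapped for each of the 16. A total of 12 had a difference above 0, against 45.1% of all genes, and the interval lay within 2-fold for 14 of the 16. Mki67, the antigen Ki-67 used to stain dividing cells, had signals of 2766, 4077 and 4574 in null against 3081, 3011 and 4905 in heterozygous bladders. Each genotype thus held both low and high arrays, and the difference was 0.06 (SE 0.29, 95% interval -0.62 to 0.74, adjusted p = 0.986, limma). Top2a, the topoisomerase that untangles sister chromosomes, had signals of 3411, 4231 and 4449 in null and 4124, 4034 and 3909 in heterozygous bladders. Its difference was -0.0060 (95% interval -0.49 to 0.48), with all 3 heterozygous arrays inside the range of the null arrays.

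Cdk1, the kinase that starts mitosis, had signals of 1240, 1983 and 1868 in null and 1598, 1394 and 1742 in heterozygous bladders, and a difference of 0.08 (95% interval -0.50 to 0.66). Ccna2 and Ccnb2, mitotic cyclins, had differences of 0.17 and -0.02 (adjusted p = 0.910 and 0.995, limma). Foxm1, a transcription factor of mitosis genes, had a difference of 0.24 (adjusted p = 0.897, limma).

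Among the kinases of the spindle, Aurka had the largest difference of the 16 with the brightest probe set per gene. Its signals were 139, 190 and 151 in null against 140, 96.2 and 127 in heterozygous bladders, so the lowest null array lay just under the highest heterozygous array. The difference was 0.36 (SE 0.23, 95% interval -0.17 to 0.90, adjusted p = 0.775, limma). With probe sets averaged it was -0.16, and the second Aurka probe set, below the filter and not tested, had a difference of -0.68. Aurkb and Birc5, kinase and partner in the complex that corrects chromosome attachment, had differences of 0.27 and -0.03 (adjusted p = 0.819 and 0.992, limma). Plk1, polo-like kinase, had a difference of 0.06 (adjusted p = 0.981, limma).

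Checkpoint and motor genes were not called either. Bub1 and Bub1b, which hold back chromosome separation until attachment is complete, had differences of 0.13 and -0.08 (adjusted p = 0.945 and 0.973, limma). Other probe sets above the filter had differences of -0.31 for Bub1 and of 0.14 and 0.05 for Bub1b. Kif11 and Kif23, motors of the spindle and of cell separation, had differences of 0.27 and 0.28 (adjusted p = 0.888 and 0.860, limma). Their other probe sets above the filter had differences of -0.16 and 0.54 for Kif11 and of -0.31 for Kif23. Cdc20 activates the complex that destroys cyclins. Its signals of 691, 1324 and 939 in null and 910, 489 and 1279 in heterozygous bladders gave a difference of 0.19, with an interval whose upper end was 2.14-fold. Cenpf, a kinetochore protein, had signals of 259, 608 and 547 in null and 414, 265 and 693 in heterozygous bladders, with a difference of 0.06 and an interval whose upper end was 2.06-fold. Cdc20 and Cenpf were the 2 mitosis genes whose intervals reached beyond 2-fold.

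The 5 G1 genes held the 2 largest differences of the 31, those of Ccne2 and Cdkn1a, and 0 were called. Ccne2, a cyclin that drives entry into DNA synthesis, had signals of 408, 505 and 521 in null against 294, 159 and 303 in heterozygous bladders. All 3 null arrays lay above all 3 heterozygous arrays. Mean levels were 8.94 ± 0.18 (null) against 8.02 ± 0.49 (heterozygous; SD, n = 3 each), a 1.90-fold higher mean in null. This difference of 0.93 (SE 0.29, 95% interval 0.26 to 1.59) was not called (adjusted p = 0.424, limma; exact permutation p = 0.1), and it ran from 0.64 (without heterozygous array 5) to 1.08 (without heterozygous array 6) with 1 array left out. Ccne1, its close relative, had a difference of -0.04 with an interval from -0.75 to 0.66.

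Ccnd2, a D-type cyclin that responds to growth signals, had signals of 11384, 11777 and 9637 in null and 14024, 15575 and 15771 in heterozygous bladders. The groups did not overlap, with mean levels of 13.41 ± 0.15 (null) against 13.88 ± 0.093 (heterozygous; SD, n = 3 each). The difference of -0.47 (SE 0.20, 95% interval -0.94 to 0.00057) was not called (adjusted p = 0.627, limma; exact permutation p = 0.1). Ccnd2 has 7 probe sets on the array, and all 7 had a difference below 0, from -0.74 to -0.40, with adjusted p from 0.674 to 0.851 (limma over probe sets). Groups were separate in 4 of them, against 7.36% of all genes separate and lower in null by their brightest probe set. The 7 probe sets read the same RNA samples and are not replicates. Ccnd1, the other D-type cyclin among the 31 genes, had a difference of -0.28 (adjusted p = 0.873, limma).

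Cdkn1a encodes p21, which blocks cyclin-dependent kinases and halts the cycle. Its signals were 601, 852 and 677 in null against 702, 1103 and 2683 in heterozygous bladders. Heterozygous array 6 was far above the rest, array 5 was second, and array 4 lay among the null arrays. The difference of -0.85 (SE 0.46, 95% interval -1.90 to 0.20, adjusted p = 0.727, limma) ran from -1.27 (without heterozygous array 4) to -0.32 (without heterozygous array 6) with 1 array left out. A second Cdkn1a probe set had a difference of -0.30 (adjusted p = 0.902, limma over probe sets) and was highest on array 5, not on array 6.

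**Figure D4:**
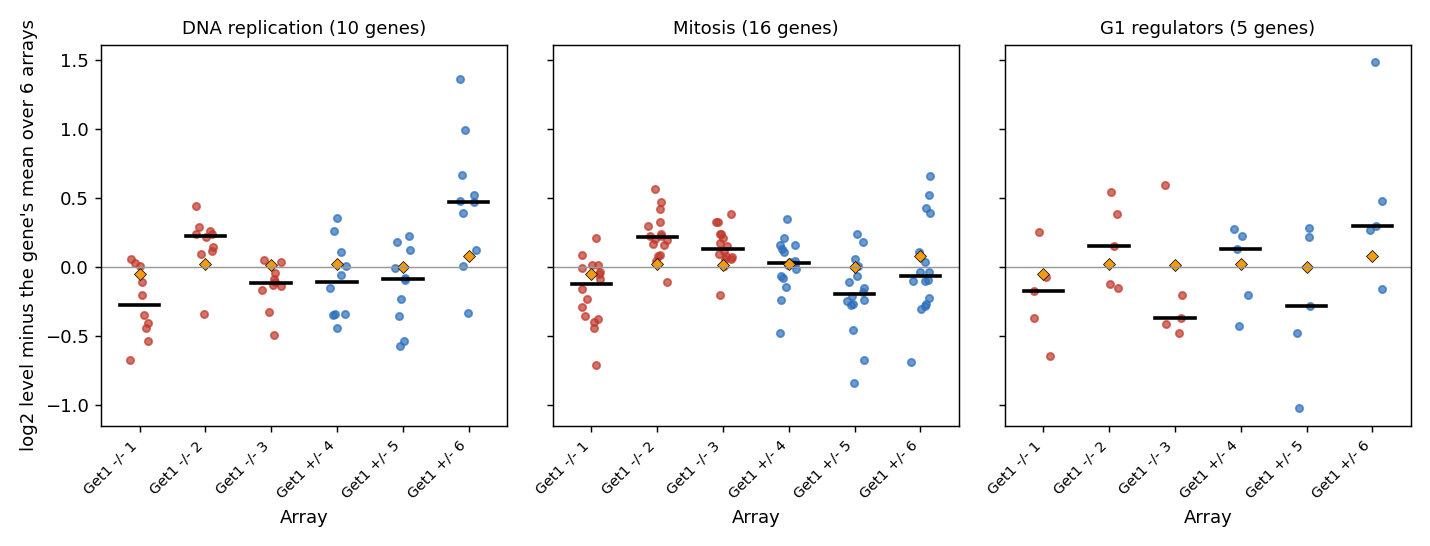
Level of each gene on each array minus that gene's mean over the 6 arrays, for the 3 roles, with black bars at the median and orange diamonds at the median of all genes tested. With the brightest probe sets drawn here, replication genes sit highest on heterozygous array 6 (median 0.47) and mitosis genes on null array 2 (median 0.22). With plain probe sets alone, replication genes sit highest on null array 2 (median 0.17).

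The arrays differed within each genotype. On heterozygous array 6 the replication genes lay 0.47 above their own mean over the 6 arrays (median), with 9 of 10 above it and 8 of 10 highest there. For all genes tested the median was 0.08, with 56.9% above their mean and 32.2% highest on this array. Null array 2 also had 9 of 10 replication genes above their mean, and null array 1 had the lowest median, -0.28. Mitosis genes followed another order: 15 of 16 lay above their mean on null array 2 and 15 of 16 on null array 3, against 4 of 16 on null array 1 and 10, 4 and 6 of 16 on heterozygous arrays 4, 5 and 6. Among all genes 53.5% lay above their mean on null array 2 and 52.5% on null array 3. The genes of a role share the RNA of each array, so these counts describe arrays and carry no test. Without null array 1, the array with the other first number in its title, the median difference was -0.02 for replication genes and 0.28 for mitosis genes. Without heterozygous array 6 it was 0.12 for replication genes and 0.13 for mitosis genes. Over all 6 such fits it ran from -0.21 to 0.12 for replication genes and from 0.02 to 0.28 for mitosis genes.

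The brightest probe sets of the 6 Mcm genes were all highest on heterozygous array 6, and all have names ending in _s_at or _x_at. The other probe sets were therefore read too. Of 19 probe sets of Mcm2 to Mcm7 above the filter 10 were highest on array 6, and of the 8 with plain _at names 2 were. The brighter of 2 plain Mcm5 probe sets lay 0.60 above the mean of arrays 4 and 5 on array 6, against 1.68 for the brightest one, and the plain Mcm6 probe set 0.42, against 1.32. Groups were separate for 3 of the 19 Mcm probe sets, against 13.4% of all genes by their brightest probe set. They were 1 of Mcm7 with a difference of -0.65, 1 of Mcm3 with 0.40 and 1 of Mcm5 with 0.36 (adjusted p = 0.701, 0.834 and 0.843, limma over probe sets). With plain probe sets alone, an alternative chosen after seeing the data, 4 of 9 replication genes were highest on array 6, against 3291 of all 11613 genes tested that way. The median of the 9 on array 6 was 0.12 above their mean, with 5 of 9 above it, beside 0.05 for all genes. On null array 2 the median of the 9 was higher, 0.17, with 8 of 9 above their mean, so the order of these 2 arrays turned. Over the 74 probe sets of the 31 genes above the filter 0 were called, against 0.206% of all probe sets (smallest adjusted p = 0.637, limma over 31526 probe sets). Of the 23 genes with several such probe sets, 10 had probe sets on both sides of 0.

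**Figure D5:**
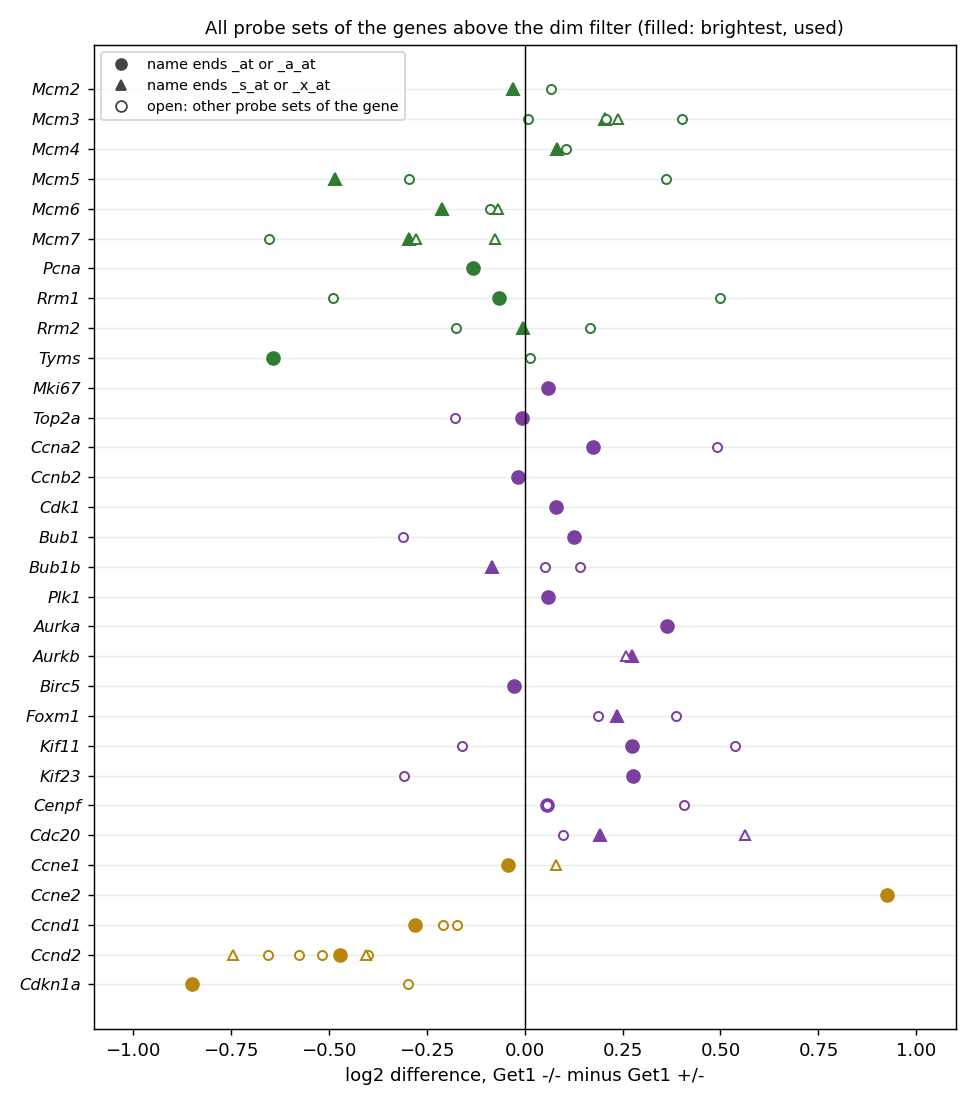
Difference, null minus heterozygous, of every probe set of the 31 genes above the dim filter, with the brightest probe set of a gene filled and others open. The 7 Ccnd2 probe sets all lie below 0, while 10 of 23 genes with several probe sets have points on both sides.

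Other genes of the cycle were read from 5 further lists. Of 40 further genes of origin licensing and the replication fork tested 0 were called, the median difference was -0.18, and 10 had a difference above 0. Gins4, a subunit of the helicase complex, had the smallest p, with a difference of -0.46 and separate groups (adjusted p = 0.625, limma). Pole2 and Rpa2, of a DNA polymerase and of the protein that coats single-stranded DNA, had differences of -0.52 and -0.44 (adjusted p = 0.700 and 0.739, limma). Of 15 genes for nucleotide supply and chromatin copying 0 were called, with a median of -0.08, and Shmt1, Nasp and Gart had differences of -0.46, -0.38 and 0.43 (adjusted p = 0.690, 0.756 and 0.775, limma).

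Of 39 further kinetochore, spindle and checkpoint genes 0 were called and the median was 0.07, with Zwilch at 0.47, Mad1l1 at -0.39 and Cenpa at 0.36 (adjusted p = 0.697, 0.776 and 0.781, limma). Of 28 genes for mitotic entry, exit and cytokinesis 0 were called, the median was 0.15 and 19 had a difference above 0. In this list Cit, a kinase of cytokinesis, had levels of 10.20, 9.48 and 9.51 in null and 8.70, 8.99 and 8.70 in heterozygous bladders, with a difference of 0.94 (adjusted p = 0.361, limma). Anln, which organises the cleavage furrow, had levels of 9.19, 9.37 and 9.24 against 8.73, 8.54 and 8.66, a difference of 0.63 (adjusted p = 0.433, limma). The groups were separate for both and overlapped for Ube2c, an enzyme that helps destroy cyclins, at 0.84 (adjusted p = 0.655, limma).

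Of 25 further G1 regulators 0 were called, with a median of 0.07. Cdkn1c, which encodes the kinase inhibitor p57 and is an imprinted gene, had levels of 9.78, 10.62 and 9.95 in null and 10.91, 11.01 and 11.23 in heterozygous bladders. Its groups did not overlap, and its difference of -0.93 was not called (adjusted p = 0.389, limma). Rb1, the retinoblastoma protein gene, and Myc, a growth regulator that was dim on all arrays, had differences of 0.65 and 1.22 (adjusted p = 0.490 and 0.546, limma), with groups that did not overlap in either. Mean Myc levels were 6.56 ± 0.082 (null) against 5.34 ± 0.99 (heterozygous; SD, n = 3 each). The heterozygous mean lay under the dim cut of 5.80, so Myc passed the filter through its null group alone. Its level on heterozygous array 6 was close to the lowest possible level of 4, while arrays 4 and 5 lay just above the cut. The size of the Myc difference and its separate groups are therefore weak evidence. Among the lists, genes with unadjusted p under 0.05 were 1 of 40, 0 of 15, 0 of 39, 2 of 28 and 3 of 25 in the order given, against 7.93% of all genes. Groups did not overlap for 4, 0, 3, 3 and 3 genes of these lists, in the same order, against 13.4% of all genes.

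Cdkn1a is a known target of p53. Of 13 other genes of the p53 response 0 were called (median 0.07). Gadd45b, Gadd45a and Zmat3 had differences of 0.99, 0.54 and 0.37 (adjusted p = 0.577, 0.743 and 0.877, limma), and 1 of the 13 had unadjusted p under 0.05. On heterozygous array 6, where the brightest Cdkn1a probe set was highest, 2 of the 13 lay above their own mean, with a median of -0.45. For all genes tested 56.9% lay above their mean on this array, with a median of 0.08. A part of p53 in the Cdkn1a level was not tested.

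Markers of other cell types moved with genotype on these arrays, and their part in the cell cycle levels was not tested. Of 11 tested markers of intestinal epithelium 9 were called higher in null, against 0.448% of all genes. The summed signal of the list lay between 16086 and 26013 on null and between 767 and 1348 on heterozygous arrays. Of 8 markers of umbrella cells, the surface layer of the urothelium, 3 were called lower in null, against 0.0628% of all genes. Their sums were 8344 to 10855 in null and 14602 to 21622 in heterozygous bladders, over all 8 markers. Keratin 20 belongs to both lists. Both were chosen with earlier results of these data known, so their counts of calls are descriptions and no test. The dim filter used the mean over the 6 arrays, so a marker could pass it through its higher group alone. Of the 12 intestinal markers 1 lay under the filter. Genes of intestinal crypt stem cells, the dividing compartment of the gut, had sums of 2295 to 2462 in null and 2167 to 3007 in heterozygous bladders, with 0 of 5 called. Differences of the 5 crypt genes ran from -0.37 to 1.45, with a median of -0.07. Unadjusted p was under 0.05 (limma) for 1 of the 5, higher in null, against 3.63% of all genes. Groups did not overlap for 1 of the 5, against 13.4% of all genes. Sums for smooth muscle ran from 158811 to 180809 in null and from 128687 to 157420 in heterozygous bladders, with 0 of 9 called. With 0.510% of all genes called, 0 calls in lists this short, here and below, say little about their cells. For white blood cell markers the sum on heterozygous array 6 was 9809, against 2742 to 3375 on the other 5 arrays. The brightest probe sets of the Mcm genes and Cdkn1a were highest on array 6 too, as were those of 32.2% of all genes tested. Of the 8 plain Mcm probe sets only 2 were, and the second Cdkn1a probe set was highest on array 5.

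Sums for basal urothelium were 12042 to 14497 in null and 7558 to 10267 in heterozygous bladders, with 0 of 7 called. Those of fibroblasts, endothelium, erythroid cells and nerve overlapped between the genotypes, with 0 called in each. By mean over the 6 arrays 0 of 8 umbrella cell markers and 1 of 8 basal urothelium markers lay under the dim filter, and the differences of the umbrella cell markers ran from -5.58 to -0.35.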

How the data were processed

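The authors deposited 1 linear intensity per probe set and array. Tools named in the submitters' processing notes are Affymetrix Expression Console 1.1 and PLIER 2.0, with no account of how each was used. How background and differences between arrays were handled was not stated in the labels. Genes in the dimmest 30% by 6-array mean were left out of the tests, at a mean level under 5.80. Values were taken as log2(value + 16), and a fold change on that scale understates the change of dim genes. Of 45101 probe sets 34945 carried 1 gene symbol in the platform annotation, and the one with the highest mean represented a gene. The 2 genotypes were compared by limma (version 3.58.1, R 4.3.3; lmFit, then eBayes; two-sided, Benjamini-Hochberg), a fit tested on simulated data.

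The genes and lists were chosen with earlier results of these data known. Named beside the 31 genes were Grhl3 and, of each other cell cycle list, the 3 genes with the smallest p. Arrays carry no shared number across genotypes, so nothing pairs them. The number of arrays limits the precision. The labels name no build for the array, so positions are printed only for promoter windows. Alternatives were offsets of 1 and 64, no dim filter or one at 50%, averaged or plain probe sets, quantile normalization, median centring, trended robust fits, array weights and leaving out each array. That of plain probe sets (names ending in _at with no letter before) was chosen after seeing the data.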

Additional observations from a re-analysis of the deposited data

How the results depend on the processing

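Under 16 alternative fits and with the other probe sets above the dim filter, 0 of the genes tested in each were called (smallest adjusted p = 0.224, limma). Not tested were 6 probe sets below the filter, Tyms with averaged probe sets, Tyms, Plk1, Aurka and Foxm1 with the filter at 50%, and Mcm7, Aurkb and Birc5 with plain probe sets. Of 531 values obtained this way 67, spread over 21 genes, had the other sign than the value reported, and 0 of these were called in either fit. The median of the replication genes was above 0 without heterozygous array 6 (0.12) and with array weights (0.05), and otherwise between -0.21 and -0.02. For mitosis genes it lay between 0.02 and 0.28 and for G1 genes between -0.45 and -0.11, with no change of sign in either. Over all genes 57 were called higher and 8 lower. With an offset of 1 these counts were 35 and 5, with an offset of 64 they were 66 and 10, with median centring 65 and 11, and with array weights 77 and 12. The lower count was 5 with the dim filter at 50%. Leaving out 1 array gave 38 to 54 higher and 5 to 9 lower calls, with 5 lower calls without null array 2 or heterozygous array 5. The higher count without null array 3 was 38.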

Other observations

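The wider cell cycle lists held the same promoter letters in different shares. E2F letters were found in 12 of 32 further origin and fork genes, 8 of 21 further G1 regulators, 4 of 16 genes of nucleotide supply and chromatin replication, 3 of 35 further kinetochore and spindle genes, 3 of 23 genes of mitotic entry and exit and 0 of 12 genes of the p53 response. CHR letters were found in 22 of 35 kinetochore and spindle genes, 13 of 23 genes of mitotic entry and exit, 8 of 16 genes of nucleotide supply and chromatin replication, 9 of 21 G1 regulators, 7 of 32 origin and fork genes and 3 of 12 genes of the p53 response. The grainyhead letters AACCGGTT were found in 0 of the genes with a window on any of the 6 further lists, the p53 list included. Over all genes E2F letters were found in 2.61%, CHR letters in 30.6% and the grainyhead letters in 0.174%. The CHR shares of the origin and fork genes (21.9%) and of the p53 response (25%) lay below that of all genes. All of these are counts of letters in windows of 300 bases, with no test.

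1 further Kif23 probe set, below the dim filter and so not tested, had levels of 5.71, 6.35 and 5.38 in null and 4.09, 4.85 and 4.71 in heterozygous bladders, a difference of 1.26 with separate groups. The brightest Kif23 probe set had a difference of 0.28, and the middle one -0.31. Of the other 5 probe sets below the filter, 1 of Top2a had a difference of -0.67 and 1 of Foxm1 -0.08, both with overlapping groups, and those of Tyms and Aurka are given above.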
